A study of Mus musculus with 2 samples.

Results

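Odorant-binding proteins and pheromone carriers of the lipocalin family were followed by 8 gene symbols, Obp1a, Obp2a, Obp2b, Lcn3, Lcn4, Lcn14, Mup4 and Mup5, in the olfactory bulb (OB) of mice that inhaled PBS or ovalbumin (OVA). A gene was measured when a probe set of the array named it and no other gene, and 6 of the 8 symbols met this rule, each with 1 probe set, among 30184 measured genes. Lcn14 is listed by RefSeq as an older name of Obp2b, so its transcript is covered by that probe set, and no probe set in the annotation used names Mup4. The labels give C57BL/6J mice at postnatal day 28, and the PBS and OVA groups each consist of 1 Clariom D array. Per the methods, each array received RNA pooled from whole OBs of 4 animals. Their mothers had been injected with the adjuvant alum alone in both groups. Mothers and pups together then inhaled an aerosol of PBS, or of 2.5% OVA, for 30 min 3 times a week over 3 weeks. OVA is the main protein of egg white and here the allergen. According to the methods, the inhalation of the pups went on until their behavioral tests and euthanasia. The labels call the animals female and the methods male. The Y-linked genes Eif2s3y and Uty had log2 intensities of 11.79 and 11.36 in the PBS array and 11.58 and 11.38 in the OVA array. Xist, the RNA of the inactive X chromosome, had 6.39 and 6.49, at percentiles 31.1 and 28.4 of all genes. High Y-linked signals beside a dim Xist are the pattern of male animals, the sex given by the methods. Neither group has a second array, so the differences below carry no error and were not tested.

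Lipocalins are small secreted proteins that fold into a barrel with a pocket for a hydrophobic ligand. Glands of the nose release several of them into the mucus, where odorant-binding proteins take up airborne molecules in front of the olfactory sensory neurons. Lcn3 and Lcn4 encode the vomeronasal secretory proteins, made by glands of the vomeronasal organ and nasal septum. Major urinary proteins (MUPs) bind male pheromones; many are made in the liver and passed into the urine, while Mup4 and Mup5 are known from nasal, lacrimal and salivary glands. The OB receives the axons of the sensory neurons.

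The genes lie among related copies on 3 chromosomes. Obp2a, Obp2b and Lcn3 are close together on chromosome 2, with Lcn4 farther along it, Obp1a is on chromosome X and the Mup genes are on chromosome 4. Their start regions are shown to let the copies be compared, from 80 bases before to 20 bases after the transcript start, 5′ to 3′ on the gene's strand (RefSeq, GRCm38.p6). Capitals mark the letters TATAAA, the core of a TATA box. The stretches are those of Obp1a (chrX:78091355-78091454, minus strand), Obp1b (chrX:78186728-78186827, plus strand), Obp2a (chr2:25699994-25700093, plus strand), Obp2b (chr2:25736927-25737026, plus strand), Lcn3 (chr2:25765453-25765552, plus strand), Lcn4 (chr2:26671263-26671362, minus strand), Mup4 (chr4:59960648-59960747, minus strand) and Mup6 (chr4:60003401-60003500, plus strand).
Obp1a: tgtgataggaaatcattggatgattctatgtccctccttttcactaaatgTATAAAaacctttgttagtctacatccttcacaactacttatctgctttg
Obp1b: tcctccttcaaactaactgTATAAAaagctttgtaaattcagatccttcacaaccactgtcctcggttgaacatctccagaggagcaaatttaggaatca
Obp2a: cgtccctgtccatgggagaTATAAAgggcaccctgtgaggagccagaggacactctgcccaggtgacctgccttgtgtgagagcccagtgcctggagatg
Obp2b: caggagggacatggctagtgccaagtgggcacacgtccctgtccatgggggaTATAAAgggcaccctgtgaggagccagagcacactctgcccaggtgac
Lcn3: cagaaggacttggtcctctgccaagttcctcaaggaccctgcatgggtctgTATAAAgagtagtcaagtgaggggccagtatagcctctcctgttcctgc
Lcn4: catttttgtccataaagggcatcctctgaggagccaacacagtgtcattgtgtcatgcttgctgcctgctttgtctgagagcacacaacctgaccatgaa
Mup4: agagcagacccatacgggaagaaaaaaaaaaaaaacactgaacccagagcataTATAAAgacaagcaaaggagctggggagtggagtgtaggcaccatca
Mup6: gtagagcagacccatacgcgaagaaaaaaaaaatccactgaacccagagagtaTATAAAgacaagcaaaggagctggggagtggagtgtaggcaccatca
Over the 300 bases held for each gene, Obp2a and Obp2b were 98.5% identical along an alignment of 267 bases. Mup4 and Mup6 were 92.3% identical, Obp1a and Obp1b 67.9%, and Lcn3 and Lcn4 56.0%. Pairs of a Mup and an Obp or Lcn promoter, aligned in the same way, had a median identity of 49.9%. Within the Mup cluster, 10 genes of its central part had identities from 91.1% to 99.0% (median 95.0%, 37 pairs aligned over at least 200 bases). TATAAA began 20 to 40 bases before the start on the gene's strand in 4 of the 6 listed genes that have a promoter in this table (Obp1a, Obp2b, Lcn3 and Mup4), against 1.99% of 32851 promoters. On either strand and anywhere in the 300 bases it was found in 5 of the 6, Lcn4 being the exception, against 13.6%. A match of these letters is a description and not a mapped site.

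Obp1a, Obp2a, Obp2b, Lcn3 and Lcn4 had low signals in both arrays, whereas Mup5 lay above the median of all genes. The log2 intensity of all genes had a median of 7.23 in the PBS array and 7.38 in the OVA array, with lower quartiles of 6.17 and 6.37. A difference is given as log2 OVA minus log2 PBS. Over all 65956 probe sets it had a mean of 0.175 and a standard deviation of 0.362, and the z-score of a gene is its distance from that mean in units of that standard deviation. The study called genes at a z-score of 2 or -2 and does not state how its z-score was centred and scaled. With the z-score defined here, these limits correspond to a difference of 0.90 (1.87-fold) or -0.55 (0.683-fold). By this rule, 0 of the 6 measured lipocalin genes were called higher and 0 lower. Of all measured genes, 2.59% were called higher and 1.67% lower. The differences of the 6 ranged from 0.01 to 0.88, and their median was 0.21, against 0.07 for all genes. The median rests on Mup5 and on the centring, since it was 0.11 without Mup5 (chosen after the data were seen), 0.0599 after the trend of the differences with signal had been removed by loess, and 0.88 with probe sets under the median signal left out, where Mup5 is the one gene left. The probe sets of different genes bind with different strength, so the signals do not rank the genes by transcript number.

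**Figure D1:**
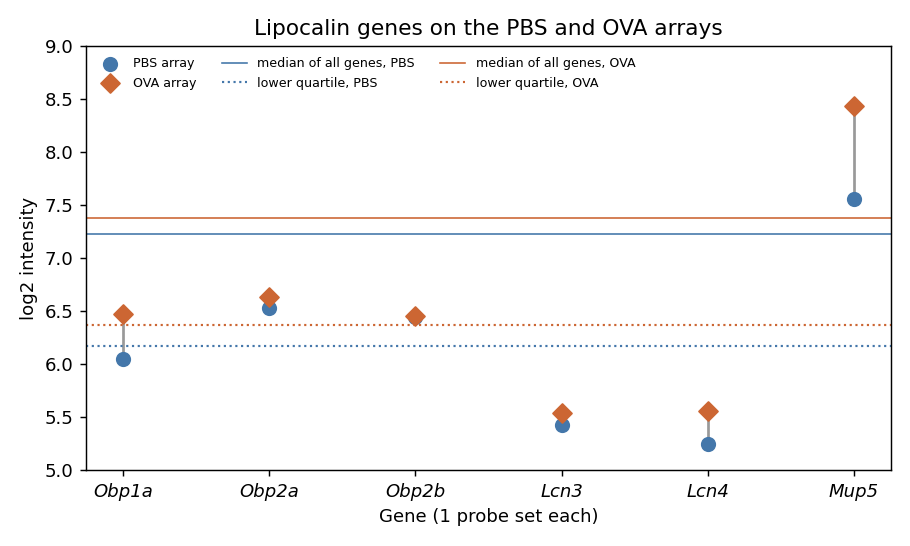
Log2 intensity of the 6 measured lipocalin genes in the PBS array (circles) and the OVA array (diamonds), 1 probe set and 1 array per point, with no error bars because there are no replicates. Solid lines are the medians and dotted lines the lower quartiles of all genes; only Mup5, at 7.56 and 8.44, lies above the medians.

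Of the listed odorant-binding proteins, Obp1a had the largest difference. Obp1a had an intensity of 66.4 (log2 6.05) in the PBS array and 89.0 (log2 6.48) in the OVA array. This was 1.34-fold higher in the OVA array, a difference of 0.42 with a z-score of 0.69, at place 4421 of the 30184 genes. Obp1b, its neighbour on the X chromosome, was not among the 8 symbols. Its intensities were 58.7 and 97.1, a difference of 0.73 and a z-score of 1.52. Both genes of this pair were thus higher in the OVA array and short of the threshold. Obp2a had intensities of 92.6 and 99.2 (log2 6.53 and 6.63), a difference of 0.10 with a z-score of -0.21. Obp2b had 87.3 and 87.8 (log2 6.45 and 6.46), the smallest difference of the 6 at 0.01, with a z-score of -0.46. Obp2a and Obp2b lay below the mean difference of the array. Transcript and probe sequences were not compared, so whether the probe sets of Obp2a and Obp2b read each other's transcript was not tested.

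The vomeronasal secretory proteins had the dimmest probe sets of the 6. Lcn3 had an intensity of 42.9 in the PBS array and 46.5 in the OVA array (log2 5.42 and 5.54), at percentiles 6.95 and 6.35 of the genes measured. Its difference was 0.11 and its z-score -0.17. Lcn4 had 38.1 and 47.0 (log2 5.25 and 5.55), at percentiles 4.66 and 6.58, a difference of 0.30 with a z-score of 0.35. Both genes thus lay near the bottom of the signal range on both arrays.

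Mup5 had the largest difference of the 6 genes. Its intensity was 188.2 in the PBS array and 346.7 in the OVA array (log2 7.56 and 8.44, percentiles 55.5 and 66.9). It was 1.84-fold higher in the OVA array, and the difference of 0.88 gave a z-score of 1.95. This was 0.018 short of the threshold on the log2 scale and ranked at place 830 of the 30184 genes. A small change of the rule therefore moved Mup5 across it. Taking centre and spread from the 1000 probe sets closest in signal gave 2.03, and 3.11% of all genes were then called higher. A centre and spread by median and median absolute deviation gave 2.48 (4.66% of genes called higher), the mean and standard deviation of probe sets naming 1 gene gave 2.23 (3.71%), and the z-score was 2.04 after the trend of the differences with signal had been removed by loess (2.74%). Mup5 also exceeded a plain 1.5-fold limit, as did 7.91% of genes. With probe sets below the median signal left out, its z-score was 1.63. None of these settings placed Obp1a, Obp2a, Obp2b, Lcn3 or Lcn4 past 2 or -2, and their z-scores ranged from -0.68 to 0.96. Whether the Mup5 probe set also reads transcripts of other Mup genes was not tested.

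**Figure D2:**
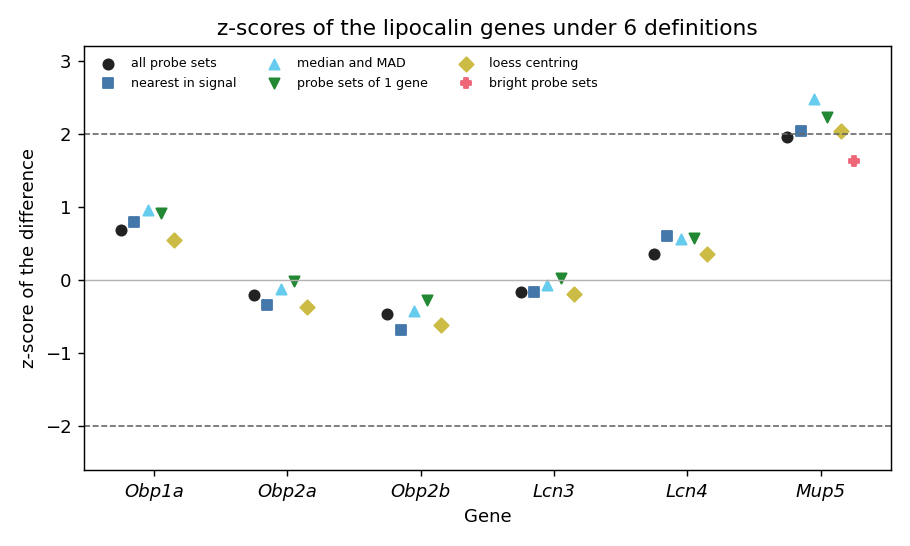
z-score of the 6 lipocalin genes under 6 definitions of the centre and spread (symbols), with dashed lines at 2 and -2; each symbol comes from the same 2 arrays. Mup5 lies between 1.63 and 2.48, on both sides of the threshold, and the other genes between -0.68 and 0.96.

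Mup5 was not alone among the genes of its family. Of the other MUP genes fixed as a list, 4 had a probe set of their own, and 2 of the 4 were called higher. Mup20 encodes darcin, a male pheromone that attracts females. Its intensities were 185.3 and 383.5 (difference 1.05, z-score 2.41). Mup6 had 158.6 and 333.4 (difference 1.07, z-score 2.48). Mup3 and Mup21, with differences of 0.62 and 0.60, were not past the threshold. The set was then widened, after these values had been seen, to every probe set that names a Mup gene or pseudogene. Of these 26 probe sets, 21 were called higher and 0 lower, 5 were not past the threshold, and all 26 had a positive difference (0.60 to 1.35, median 1.22). Of all probe sets on the array, 4.37% were called higher and 1.15% lower. The 18 probe sets of Mup pseudogenes had a median difference of 1.25, and 17 of them were called higher. The probe set of Mup-ps9 had the largest difference, 1.35, with intensities of 618.9 in the PBS array and 1582 in the OVA array. Of the 3 probe sets that name several genes at once, the one for Mup19, Mup16 and Mup9 went from 761.3 to 1818 (difference 1.26). The one for Gm2083, Mup22 and Mup18 went from 801.9 to 1867 (difference 1.22). The one naming Mup20 together with Mup-ps19 went from 228.6 to 391.9 (difference 0.78, z-score 1.66). It was short of the threshold, unlike the probe set of Mup20 alone.

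These 26 probe sets are not 26 separate measurements. The probe sets of Mup-ps3 and Mup-ps11 had identical values, 720.8 in the PBS array and 1681 in the OVA array. Pseudogenes mostly yield no protein, and which transcripts or genomic copies their probe sets read was not tested. The same holds for the probe sets of Mup5, Mup6 and Mup20. The brighter Mup probe sets had larger differences as a group, by a cut set after the values had been seen. The 17 with a log2 PBS intensity above 8.5 had differences of 1.16 to 1.35, and the 9 others, Mup5 included, 0.60 to 1.07. Within the 17, the brightest probe set did not have the largest difference, and no correlation was computed. The brightest, naming Gm2083, Mup22 and Mup18 (log2 PBS 9.65), had 1.22, and Mup-ps14 (8.80) had 1.35. The correlation of the PBS intensity with the difference was 0.88 (Pearson) and 0.63 (Spearman) over the 26 probe sets, of which at least 1 pair is not independent, and the PBS value enters both measures. Genes outside the family had such values as well. Of 4569 genes with a mean log2 signal from 9 to 11, 227 (4.97%) had a difference of at least 1.1, of which 15 are named Mup and 212 are not. Each Mup gene or pseudogene in that band reached this difference. Band and limit were set after the values had been seen.

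**Figure D3:**
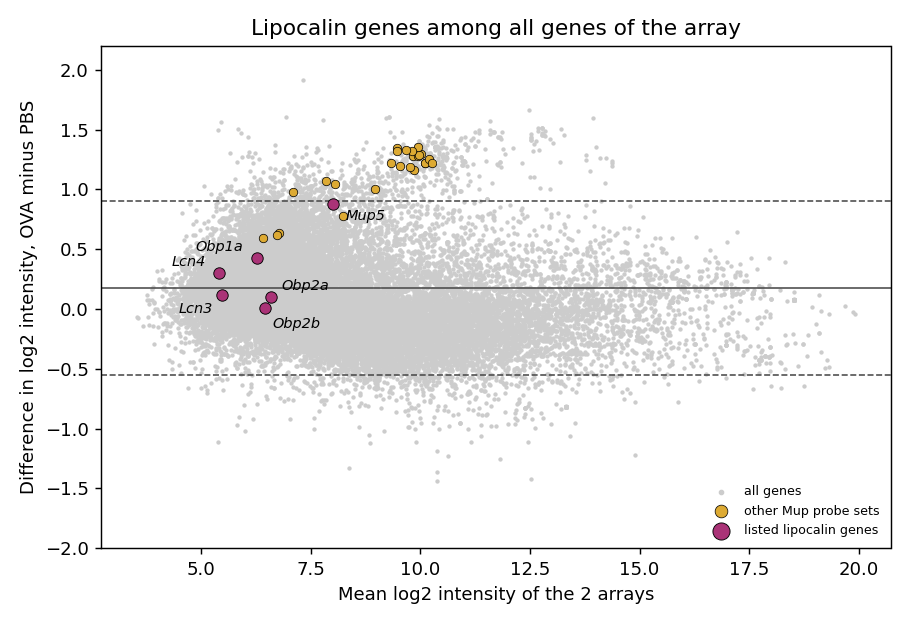
Difference in log2 intensity (OVA minus PBS) against the mean log2 intensity for all 30184 genes (grey), the 6 lipocalin genes (purple) and the 25 other Mup probe sets (yellow), which include those naming pseudogenes or several genes. The solid line is the mean difference, 0.175, and the dashed lines mark z-scores of 2 and -2; 21 of the 26 Mup probe sets lie above the upper dashed line, and Mup5 lies just below it.

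By cluster, the Obp and Lcn genes on chromosome 2 had differences near 0. The Obp genes on chromosome X and the Mup genes on chromosome 4 were higher in the OVA array. Lipocalins with other names were not placed in these clusters. On chromosome 2, the 12 probe sets of Obp and Lcn genes, 4 of them listed here, had differences from -0.11 to 0.30 (median 0.11), and 0 were past the threshold. The lower end belonged to Lcn2, an iron-siderophore binding protein raised in inflammation, with intensities of 81.7 and 75.9. The 2 probe sets on chromosome X had 0.42 and 0.73, and the 25 Mup probe sets on chromosome 4 had 0.60 to 1.35. Among these probe sets, only 2 of them on chromosome X, the ranges of the 3 clusters did not overlap, except that Obp1b lay within that of chromosome 4. The X-linked lipocalins with other names, given below, reach down to 0.25, which is within the range of chromosome 2. The share of all genes within each range was not computed. Genes next to the clusters were also looked up, as the 5 measured genes nearest on each side (chosen after the values above had been seen). The 10 around the Mup cluster had a median difference of -0.02 (-0.32 to 0.55), and the 10 around the main chromosome 2 cluster -0.12 (-0.24 to 0.56). The 10 around the Obp1a and Obp1b pair had a median of 0.32 (-0.12 to 0.68). Further lipocalins lie among these 10 or between the pair. Pbsn, which encodes probasin, a lipocalin of the prostate, had a difference of 0.25. Gm14744 and 5430402E10Rik, both with an OBP name among their RefSeq synonyms, had 0.28 and 0.52, and Gm5938 (synonym OBP6), which lies between Obp1a and Obp1b, had 0.36. None of these neighbouring genes was past the threshold.

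**Figure D4:**
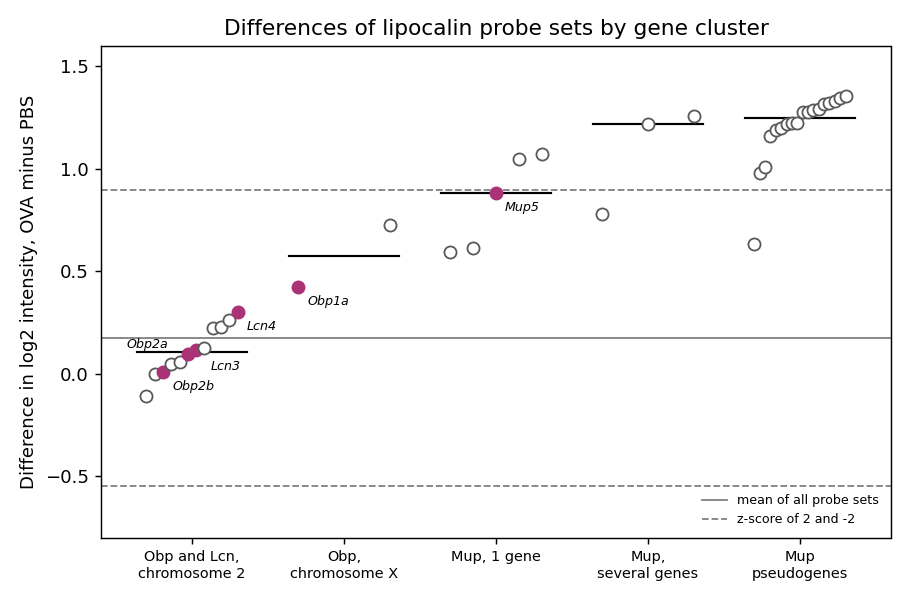
Difference in log2 intensity (OVA minus PBS) of each probe set that names an Obp, Lcn or Mup gene, grouped by cluster and kind; filled points are the 6 listed genes and short black lines the group medians. The solid grey line is the mean over all probe sets and the dashed lines mark z-scores of 2 and -2; the 12 points of chromosome 2 lie at 0.30 or below and the Mup points at 0.60 or above.

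Among lipocalins outside these groups, those that the brain itself makes had strong signals that were slightly lower in the OVA array. Ptgds, the prostaglandin D synthase of the meninges, had log2 intensities of 15.74 and 15.54 (z-score -1.05). Apod, apolipoprotein D of glial cells, had 14.90 and 14.80 (z-score -0.75). Of the 17 measured genes in the list of other lipocalins, which includes Lcn genes, 0 were past the threshold, and their median difference was 0.19. The list also holds plasma carriers of the liver, such as Orm1, an acute-phase protein, with a difference of 0.32. Of 4 receptors that take up lipocalins, 0 were past the threshold. The one farthest from the mean was Slc22a17, the receptor of Lcn2, at -0.42 (z-score -1.65), and Lrp2, the endocytic receptor megalin, had 0.16.

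Markers of the tissues that make these carriers mostly had low signals. Of 12 genes of nasal glands and supporting cells, 0 were brighter than the median gene. Their median difference was 0.14, and 0 were past the threshold, with Bpifb9b, a secreted lipid-binding protein, farthest from the mean at 0.36. Of 13 hepatocyte genes, 0 were brighter than it. Their median difference was 0.17, and Alb, serum albumin, had log2 intensities of 6.12 and 6.63. Of 13 salivary and lacrimal gland genes, 0 were past the threshold (median 0.26), and Csn3, kappa-casein, had the largest difference at 0.85 (z-score 1.87). Prol1 (log2 8.19 and 8.68) and Amy1 (10.13 and 10.36) were the 2 genes of that list above the median signal. Of the 11 genes of olfactory sensory neurons, whose axons enter the OB, 0 were past the threshold. Their median difference was 0.05, and Omp, the olfactory marker protein, had log2 intensities of 8.31 and 8.21, and Stoml3, a stomatin-like membrane protein, was farthest from the mean at -0.36 (z-score -1.47). The 8 genes of vomeronasal neurons had a median of 0.38 (0.16 to 0.78), with H2-M10.6, an MHC molecule of these neurons, at 0.78 (z-score 1.67). For all of these lists the share of genes called over the whole array is the one given above. Genes of OB neurons had strong signals, as 12 of 13 were brighter than the median gene, led by Calb2 (calretinin, log2 15.63 and 15.27), Gad1 and Th. This does not by itself set the OB apart from other brain regions. Of the 13, 5 were called lower and 0 higher in the OVA array, among them the vesicular glutamate transporter Slc17a6 at -0.91, the mitral and tufted cell cadherin Cdhr1 at -0.87, and at -0.62 both Gad1, which makes GABA, and Th, the enzyme of dopamine synthesis. In whole tissue with 1 array per group, fewer cells of a type, less RNA per cell and a shift between the arrays cannot be told apart. The z-scores of these 13 genes used the centre and spread of all probe sets, not of those closest in signal. The part of any of these lists in the values of the carriers was not tested.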

How the data were processed

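RNA of whole OBs was measured on 2 Clariom D mouse arrays, 1 for PBS and 1 for OVA, each hybridized with 100 ng of RNA from 4 pooled animals. The deposited values are linear intensities that the authors made by SST-RMA (robust multi-chip averaging after a transformation of the signal space), per gene in Expression Console (version 1.4.1 in the submitters' processing notes). Build of the array annotation and any filter on dim probe sets: not given in the sources used here. Medians of the deposited intensities were 118.4 (PBS) and 136.8 (OVA), so the deposited arrays do not share 1 distribution. The arrays give no depth, and 1 array per group sets the precision.

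Intensities were converted to log2 (Python 3.11.15; numpy 2.4.6; pandas 2.3.3). Differences, z-scores, loess curves (statsmodels 0.14.6, span 0.2) and promoter alignments (Biopython 1.88) were computed from the files, and the z-score steps were tested on simulated data. Gene names came from the annotation of the platform, where 30646 probe sets name 1 gene, 2168 several and 33142 none. The value of a gene is the mean over the probe sets naming it alone. Promoters matched 6 of the 8 symbols, with Lcn14 covered as Obp2b.

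The text names all listed genes and, from each other list, those past the threshold (at most 4 a direction, the farthest first) or else the farthest from the mean, besides the brightest genes of lists that check the tissue. Apod, Lcn2, Orm1, Lrp2, Omp, Prol1, Amy1, the Mup pseudogenes and probe sets of several genes and the genes beside the clusters were added after their values had been seen. The members and lists were chosen with earlier results of these data known. The alternatives for the z-score, centring, probe set choice and signal filter are given in the closing section.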

Additional observations from a re-analysis of the deposited data

How the results depend on the processing

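With the z-score as defined here over all probe sets, 0 lipocalin genes were called higher. The count was 1, in each case Mup5, with centre and spread from the probe sets closest in signal, by median and median absolute deviation, from those naming 1 gene, after loess centring, and with the 1.5-fold limit. It was 0 with dim probe sets left out, with the brightest probe set of each gene and with probe sets naming several genes added. The last 2 of these leave the values as they are, since each gene has 1 probe set and no listed gene is named together with another. The count called lower was 0 under every one of these alternatives. The median difference of the 6 genes, 0.21, was 0.0599 after loess centring and 0.88 with dim probe sets left out, where Mup5 is the one gene left. Without Mup5, an alternative chosen after the data were seen, it was 0.11. No paired analysis was possible because each group has 1 array, and leaving out a replicate was not run for the same reason. Lcn3 and Lcn4 had the lowest signals of the 6 genes in both arrays.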

Other observations

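Some rows of the deposited table carry the same intensity in both arrays to every digit given. Lcn5, an epididymal retinoic acid-binding lipocalin, had 65.9 in both, C8g, the lipocalin subunit of complement component C8, had 51.8, and Cyp2f2, a cytochrome P450 of the airway and nasal epithelium, had 56.6. Such rows numbered 513 of 65956 (0.778%). None of the 6 listed lipocalin genes was among them.

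The probe set of Gm21286, a noncoding RNA gene that lies inside the Mup cluster, had log2 intensities of 8.38 and 9.26. Its difference of 0.88 and z-score of 1.93 were close to those of Mup5, which was dimmer in both arrays. Gm12909, also inside the cluster, had log2 intensities of 5.58 and 5.61 and a difference of 0.02. Mup-ps22, the 1 Mup pseudogene placed on chromosome 11, had intensities of 96.8 and 191.0 and a difference of 0.98.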
